A study of Rattus norvegicus with 8 samples.

Results

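The T-box transcription factors were followed here through 6 listed rat genes, Tbx1, Tbx2, Tbx3, Tbx4, Tbx5 and Tbx20. Probes were taken as members where their RefSeq transcript belonged to one of these symbols, which gave 7 of the 45598 gene probes on the array, for 5 of the 6 genes. Tbx2 was not analysed here. The family was listed because Tbx1 rose from background with Klf4 in these same arrays, so the values of Tbx1 that chose it are given as a description, without a test. For the other members the adjusted p of the fit over all probes only places them against its threshold, an adjusted p of 0.05.

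A Klf4 and a control plasmid were compared in Lister hooded rat retinas dissected at postnatal day 0 and electroporated in vitro with 25 V square pulses of 50 ms. One group of 4 arrays, numbered 2 to 5, held cells that received a plasmid encoding Klf4, a zinc-finger transcription factor, and the other group of 4, with the same numbers, held cells that received a control plasmid. Both were cultured as explants for 39 hours, and the GFP-positive cells, those transfected, were sorted before RNA extraction. The labels name neither the promoter that drives the insert nor the number of animals pooled. They do not say that the numbered samples were separate electroporations either, and p-values thus cover the variation among these 8 samples, part or all of which may be technical.

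T-box proteins bind DNA through a shared domain, the T-box, and act in dose-sensitive ways during the patterning of embryonic tissues. Tbx2 and Tbx3 act largely as repressors, while Tbx1, Tbx4 and Tbx5 mostly activate their targets. In the embryonic mouse and chick eye, Tbx2, Tbx3 and Tbx5 are known as genes of the dorsal retina, downstream of bone morphogenetic protein (BMP) signalling. Tbx1 is best known from the pharyngeal arches, the heart outflow tract and the ear, and is the main gene of DiGeorge syndrome.

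The 75th percentile of the gene signals, which sets the 0 of the normalised log2 scale used below, ranged from 2615 to 5304 over the Klf4 arrays and from 2399 to 5370 over the controls, and 72.1% to 86.5% of gene spots carried the scanner software's flag for a signal well above background. The number of arrays limits the precision. Both arrays numbered 5 came from a second scan, and both arrays numbered 4 were marked for evaluation by the scanner software. On the single slide the Klf4 arrays lay in columns 2 and 4 and the controls in columns 1 and 3, so slide column and plasmid cannot be told apart. The Klf4 probe itself read -3.0 ± 0.86 with the Klf4 plasmid and -3.27 ± 0.62 with the control plasmid (SD, n = 4 each), a difference of 0.27 (SE 0.46, limma adjusted p = 0.903). Where that probe lies in the transcript, and whether the plasmid carries its target, the labels do not say. All 12 retinal markers, among them Pax6, Otx2 and Crx, were well above background on all 8 arrays, 2 of them lower with Klf4, Rbp3 (-1.10, adjusted p = 0.0156) and Crx (-0.84, adjusted p = 0.0386). With 1 array left out the adjusted p reached 0.0632 for Rbp3, without control replicate 4, and 0.135 for Crx, without control replicate 2 or 4. Without scaling between arrays neither passed (0.838 for Rbp3). In sorted pools such as these, fewer cells of a type and less RNA per cell cannot be told apart.

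The DNA around the starts of Tbx1 is shown first, because Tbx1 is the member whose signal differed between the plasmids. RefSeq lists 2 starts for Tbx1 on GRCr8, both on the plus strand, and each window runs from 250 bases before the start to 50 after it. Capitals mark, on either strand, the letters CACCC, the box bound by Krüppel-like factors, and the letters of the GC box, which are CCGCCC.
Tbx1, first start, chr11:95913360-95913659: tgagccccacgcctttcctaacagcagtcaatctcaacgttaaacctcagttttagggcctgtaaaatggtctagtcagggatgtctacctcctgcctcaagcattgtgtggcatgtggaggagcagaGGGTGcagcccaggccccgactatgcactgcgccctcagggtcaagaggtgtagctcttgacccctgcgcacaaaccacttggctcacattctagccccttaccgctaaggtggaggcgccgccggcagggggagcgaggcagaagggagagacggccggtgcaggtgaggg
Tbx1, second start, chr11:95915154-95915453: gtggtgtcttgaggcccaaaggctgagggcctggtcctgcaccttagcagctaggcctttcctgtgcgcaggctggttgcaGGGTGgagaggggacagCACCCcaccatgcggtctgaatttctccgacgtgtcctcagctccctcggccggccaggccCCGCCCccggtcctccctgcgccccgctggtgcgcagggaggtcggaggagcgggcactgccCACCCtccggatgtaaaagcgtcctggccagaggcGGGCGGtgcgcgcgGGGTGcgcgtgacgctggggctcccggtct

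The first window held 1 CACCC box, beginning at position -122 from the start, and 0 GC boxes, with a G and C content of 59.3%. The second held 4 CACCC boxes and 2 GC boxes, with a G and C content of 70.3%. Windows of other members, whose signals did not pass the threshold or stayed at background, held such letters too: 2 CACCC and 2 GC boxes for Tbx4, 1 and 0 for Tbx5, and 1 and 1 for Tbx20. Over all 33469 promoter windows of the table, 54.9% held CACCC and 33.1% held CCGCCC on at least 1 strand. The T-box half-site, TCACACC on either strand, was in 0 of the 5 member windows, against 3.83% of all windows. These matches describe the letters only.

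Tbx1 was measured by 1 probe, A_64_P009857. It read 464, 426, 251 and 283 units of processed signal on Klf4 replicates 2 to 5, against 4.12, 4.41, 7.48 and 5.04 on control replicates 2 to 5. All 4 Klf4 arrays were well above background and none of the controls was, and the groups lay far apart. On the normalised scale these were -1.75, -1.71, -2.55 and -1.48 with Klf4, against -8.50, -8.60, -7.37 and -7.18 in the controls.

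The mean of Tbx1 was -1.87 ± 0.47 with Klf4 and -7.91 ± 0.74 with the control plasmid (SD, n = 4 each), a log2 difference of 6.04 (SE 0.38). The control signals are not well above background and give only a bound there. Against the lowest signal that was well above background on each control array, which averaged -5.91, Tbx1 was at least 16.4-fold higher with Klf4. This bound is not strict: on control replicate 4 that lowest signal was 30.0 units, while Grem1 read 32.0 there without the flag. The difference was 6.15 between the 3 arrays per group of the first scan and 5.70 between the single arrays of the second. It fell to 2.44 with another background correction (normexp on the spot medians) and to 4.04 with signals raised to the lowest level well above background, and stayed positive in all 24 alternatives.

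Of all 34724 probes tested, 18 had a difference at least as large as that of Tbx1, itself included. Being well above background on all 4 Klf4 arrays and on 0 control arrays was shared by 36 of the 45598 gene probes, or 0.0790%. That the groups of Tbx1 did not overlap was true, with Klf4 the higher, of 5.60% of the tested probes that had a value on every array, and with Klf4 the lower of 4.69%. Since Tbx1 chose the family, nothing is read from these shares.

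**Figure D1:**
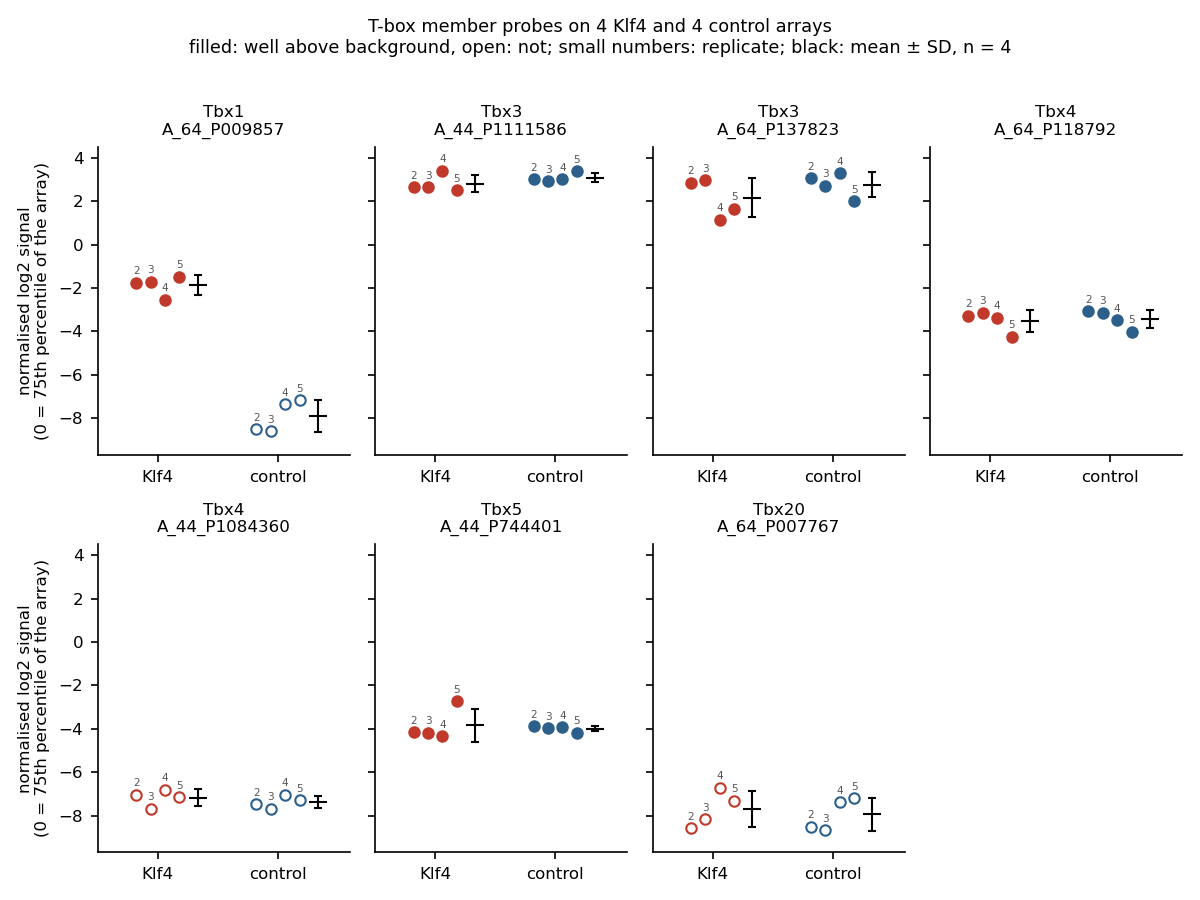
Normalised log2 signal (0 is the 75th percentile of each array) of the 7 T-box member probes, 4 Klf4 arrays left and 4 control arrays right in each panel. Points are arrays with their replicate numbers, filled where well above background and open where not, and black marks are the mean ± SD. Tbx1 lies between -2.55 and -1.48 with Klf4 and between -8.60 and -7.18 in the controls, while the groups of the other probes overlap.

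Tbx3, a repressor needed for the limbs, the mammary gland and the conduction system of the heart, was the member with signals far above background in both groups, and 2 probes measured it. Probe A_44_P1111586 read 9819, 8743, 15506 and 4500 on Klf4 replicates 2 to 5, against 12073, 13095, 10031 and 7644 on control replicates 2 to 5. Its normalised mean was 2.80 ± 0.40 with Klf4 and 3.09 ± 0.20 with the control plasmid (SD, n = 4 each). The difference of -0.28 (SE 0.22) did not pass the threshold (limma adjusted p = 0.716), and its 95% interval ran from -0.78 to 0.21.

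The other Tbx3 probe, A_64_P137823, read 11230, 10904, 3235 and 2480 on Klf4 replicates 2 to 5, against 12406, 11228, 12216 and 2910 on control replicates 2 to 5. The low arrays were Klf4 replicates 4 and 5 and control replicate 5. Its difference was -0.61 (SE 0.46, adjusted p = 0.710), with a 95% interval from -1.66 to 0.43. The SD of this probe was 0.90 with Klf4 and 0.57 with the control plasmid (n = 4 each).

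The 2 Tbx3 probes are listed under different RefSeq transcripts of the gene and disagreed on the same arrays. With Klf4, replicate 4 was the highest array for A_44_P1111586 (normalised level 3.403) and the lowest for A_64_P137823 (1.14). In the controls, replicate 5 was the highest for the first (3.39) and the lowest for the second (1.99). Relative to its own mean over the 8 arrays, Klf4 replicate 4 was at 0.46 for A_44_P1111586 and at -1.32 for A_64_P137823. The mean over both probes gave a difference of -0.45 (SE 0.20, adjusted p = 0.433).

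Tbx4, needed for the hindlimb bud and the lung in the mouse, was detected by 1 of its 2 probes. Probe A_64_P118792 read 160, 157, 141 and 41.4 on Klf4 replicates 2 to 5, against 178, 194, 110 and 45.0 on control replicates 2 to 5. In both groups replicate 5, of the second scan, was the lowest array, also after scaling (-4.25 with Klf4 and -4.02 with the control plasmid). The mean was -3.52 ± 0.50 with Klf4 and -3.43 ± 0.44 with the control plasmid (SD, n = 4 each), a difference of -0.08 (SE 0.30, adjusted p = 0.966) with a 95% interval from -0.76 to 0.60.

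The other Tbx4 probe, A_44_P1084360, was not well above background on any of the 8 arrays, at 5.53 to 13.1 units with Klf4 and 4.68 to 9.41 units with the control plasmid. No fold is given for it. In the RefSeq gene table Tbx4 is the direct protein-coding neighbour of Tbx2, and Tbx5 that of Tbx3.

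Tbx5, a factor of the dorsal retina, the forelimb and the heart, read 88.4, 76.9, 72.5 and 119 on Klf4 replicates 2 to 5, against 101, 110, 82.2 and 40.2 on control replicates 2 to 5. All 8 signals were well above background. Normalised, the Klf4 arrays lay at -4.15, -4.18, -4.34 and -2.73, and the controls at -3.88, -3.97, -3.91 and -4.19. Klf4 replicate 5 was thus the highest of all 8 arrays and the other 3 Klf4 arrays lay below control replicates 2, 3 and 4.

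The pooled difference of Tbx5 was 0.14 (SE 0.34, adjusted p = 0.941), with a 95% interval from -0.63 to 0.91. Within the first scan, with 3 arrays per group, it was -0.30 (SE 0.12, adjusted p = 0.406), and between the single arrays of the second scan it was 1.46. Without Klf4 replicate 5 it was -0.23 (adjusted p = 0.570), so the sign of the pooled value rests on that array.

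Tbx20, a factor of the heart and of hindbrain motor neurons, was not well above background on any array. Its probe, A_64_P007767, read 4.09, 4.80, 14.0 and 4.94 on Klf4 replicates 2 to 5, against 4.10, 4.19, 7.44 and 5.02 on control replicates 2 to 5. No difference is given for it, and the arrays show only that its signal stayed at the level of background in both groups.

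In all, 5 member probes for 4 genes passed the filter on dim probes, and the 2 that did not, the second Tbx4 probe and Tbx20, stayed untested. Of the 3 tested genes beside Tbx1, 0 passed the threshold with limma and 0 had an unadjusted p under 0.05. Over all 34724 probes tested, 3.63% were called in either direction, 3.12% higher with Klf4 and 0.504% lower (1085 and 175 probes, and 620 and 3 without scaling between arrays). The other 4 member probes all had overlapping groups.

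**Figure D2:**
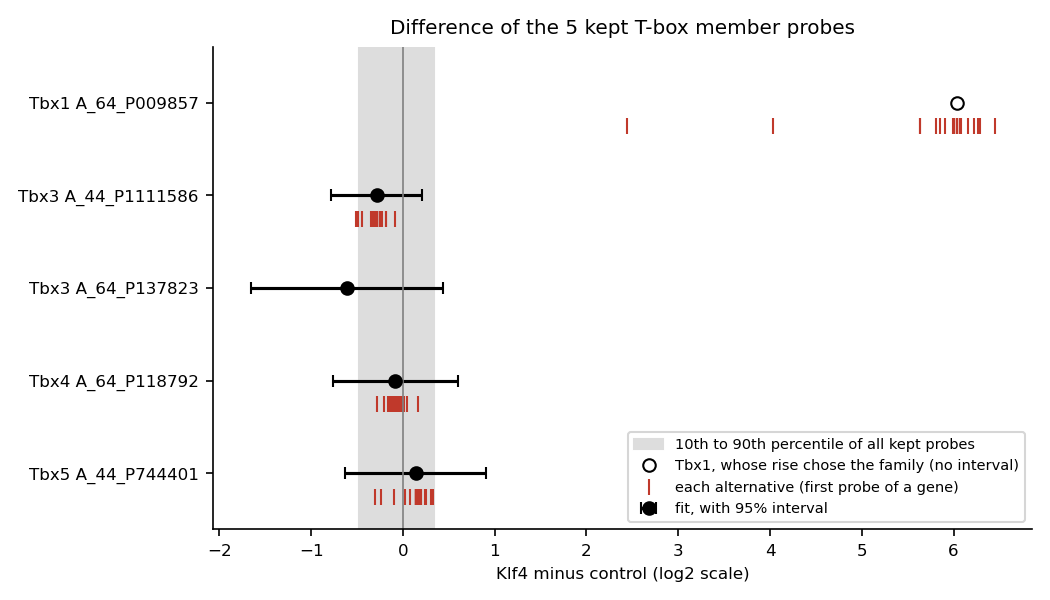
Difference of Klf4 minus control on the log2 scale for the 5 T-box member probes that passed the filter, with 95% intervals of the limma fit for all but Tbx1 (open point), whose rise chose the family, and red ticks for each alternative processing of the first probe of a gene. The grey band holds the 10th to 90th percentile of all probes tested, -0.48 to 0.34. Tbx1 lies at 6.04, with ticks from 2.44 to 6.45, and the intervals of the other 4 probes include 0.

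The arrays whose values moved with each member can be described by the genes closest to it, by the Pearson correlation r over the 8 arrays, which share each array's scaling. Closest to Tbx1 were Ccn3, a matricellular signalling protein (r = 0.997), Cyba, a subunit of the NADPH oxidase (0.996), Slc34a2, a phosphate transporter (0.994), Gnai2, an inhibitory G protein subunit (0.994), and Nectin4, an adhesion molecule (0.992). Ccn3, Slc34a2 and Nectin4 were well above background on 4 Klf4 arrays and 0 controls, as Tbx1 was. Cyba and Gnai2 were well above background on all 8 arrays, at 2.97 to 3.11 with Klf4 against 2.05 to 2.27 with the control plasmid for Cyba, and at 6.22 to 6.37 against 5.16 to 5.499 for Gnai2. Since the genes were picked by likeness to Tbx1, that their groups lie apart is part of the choice.

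**Figure D3:**
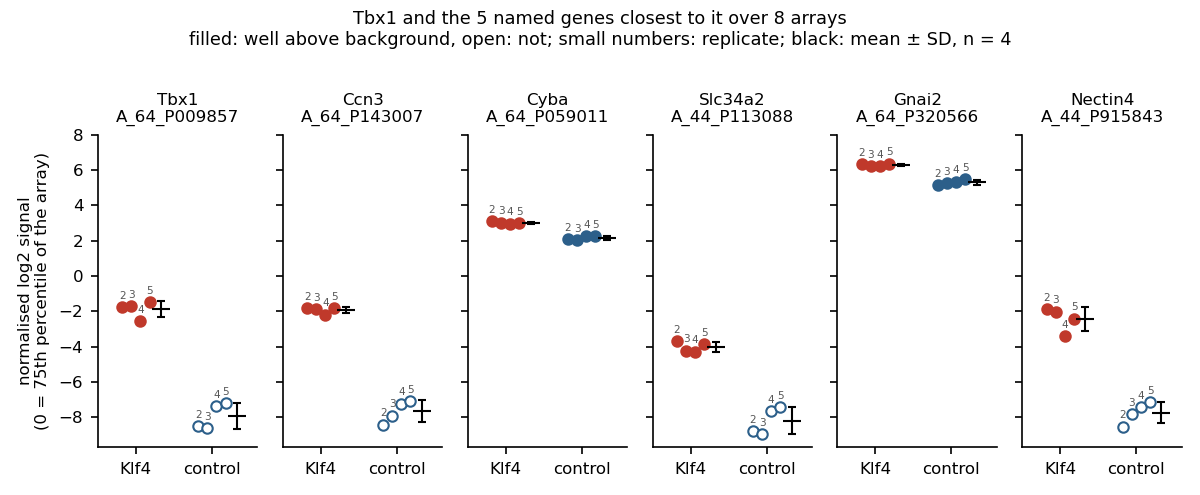
Normalised log2 signal of Tbx1 and of the 5 named genes closest to it over 8 arrays, Klf4 left and control right, with points filled where well above background. Ccn3, Slc34a2 and Nectin4 are open on all 4 control arrays, as Tbx1 is, while Cyba and Gnai2 are filled on all 8.

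For the other members the closest genes shared the array on which they were highest or lowest. Those of Tbx5 were Ghrh (r = 0.988), Sptlc2 (0.979) and Cacna1f (0.976), all highest on Klf4 replicate 5. Those of Tbx3 were Osbpl9 (0.988), Iftap (0.975) and Ptges3l (0.973), all highest on Klf4 replicate 4. Those of Tbx4 were Prr16 (0.991), Mdfi (0.984) and Or13c7 (0.979), all lowest on Klf4 replicate 5.

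Among the T-box genes outside the 6 listed, 7 of 11 had a probe and 5 were tested. Of these 5, 2 rose, 0 fell and 3 did not pass, with a median difference of -0.09, against -0.07 over all probes tested, of which 3.12% were higher and 0.504% lower. For both risen genes all 4 control arrays were at background, so they passed the filter on dim probes through the Klf4 group alone, and their count supports nothing about the family.

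Tbxt, which encodes brachyury, the T-box factor of the early mesoderm and notochord, read 203, 67.4, 34.3 and 208 units on Klf4 replicates 2 to 5, against 7.20, 9.90, 6.24 and 4.70 on control replicates 2 to 5. It was well above background on 3 Klf4 arrays, with replicate 4 the exception. It rose (limma adjusted p = 0.0143), with measured means of -3.66 with Klf4 and -7.51 with the control plasmid. Against the lowest control signals well above background this was 4.73-fold, which took Klf4 replicate 4 as read and is not a strict bound. The adjusted p was 0.0570 without Klf4 replicate 2, 0.0556 without control replicate 2 and 0.0503 without control replicate 4. With normexp the difference was 1.40 (adjusted p = 0.118) and with floored signals 2.42 (0.0854). Without the filter the adjusted p was 0.0265.

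Tbx18, a factor of the epicardium, somites and pericytes, had 2 probes. A_42_P559462 read 94.7, 46.0, 28.1 and 50.1 on Klf4 replicates 2 to 5, against 12.9, 11.3, 7.24 and 6.08 on control replicates 2 to 5. It was well above background on the Klf4 arrays other than replicate 4. It rose (adjusted p = 0.00833), with measured means of -4.66 with Klf4 and -7.11 with the control plasmid. Against the lowest control signals well above background this was 2.37-fold, which took Klf4 replicate 4 as read and is not a strict bound. The adjusted p was 0.272 with normexp, where the difference was 0.66, 0.0875 with floored signals, where it was 1.49, and 0.0584 in the first scan alone. Without the filter it was 0.0158. The other Tbx18 probe, A_44_P378639, was not well above background on any array and was not tested.

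Beside these values stand the markers of other cell types. Of 10 pericyte, smooth muscle and fibroblast markers 6 were tested, and 2 rose, Col1a1 (1.36, adjusted p = 0.00128) and Cspg4 (1.62, adjusted p = 0.00374), though neither passed without scaling (0.190 and 0.0694). The other 4 did not pass and lay below 0, Pdgfrb at -0.86, Col1a2 at -0.47, Col3a1 at -0.17 and Acta2 at -0.11, which gave the list a median of -0.14. Rgs5 was well above background on 1 Klf4 array alone, and Dcn, Lum and Tcf21 were not so on any array. The summed signal of the 6 tested markers, in units of each array's 75th percentile, was 9.83 to 12.4 over the Klf4 arrays and 5.96 to 8.52 over the controls. A sum follows its brightest probe, here Col1a1, and without it the ranges overlapped, at 3.15 to 5.68 with Klf4 and 3.55 to 5.82 with the control plasmid.

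The summed signals of the other 7 marker lists, retinal, pigment epithelial, endothelial, microglial, surface epithelial, lens and muscle, overlapped between the plasmids. Without the brightest marker of each, a choice made after seeing the data, they still did except for the microglial list, at 1.91 to 3.16 with Klf4 and 1.01 to 1.88 with the control plasmid without Cx3cr1. That remaining sum follows C1qb, its brightest marker and the gene of the list that rose. Cx3cr1 itself lay at 2.53 to 3.79 with Klf4 and 3.31 to 4.19 with the control plasmid. Single genes of these lists that rose were Tek (2.38, adjusted p = 0.00161), C1qb (1.04, 0.0245), Esam (3.52-fold, 0.00990) and Krt8 (2.88-fold, 0.00236). The other tested genes of their lists did not pass. They were the endothelial Cdh5 (-0.01), Flt1 (-0.02), Kdr (0.03) and Vwf (0.13) and the surface epithelial Krt5 (-0.20), Cdh1 (-0.09), Krt14 (0.06) and Krt18 (0.53). The microglial ones were Cx3cr1 (-0.23), P2ry12 (-0.03), Csf1r (-0.001), C1qa (0.13), Tyrobp (0.19) and Aif1 (0.60). Esam and Krt8 were above background on 3 Klf4 arrays and 0 controls, and so entered the test through the Klf4 group. Their folds, against the lowest control signals well above background, took Klf4 replicate 4 as read and are not strict bounds. With normexp the adjusted p was 0.0897 for Esam and 0.225 for Krt8, in the first scan alone 0.0856 for Esam, and with floored signals 0.0667 for Krt8. That of C1qb was 0.0830 without Klf4 replicate 2 and 0.849 without scaling. The part of such cells in the T-box values was not tested.

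Tbx6, which acts in the paraxial mesoderm, lay at -2.06 with Klf4 and at -1.42 with the control plasmid and did not pass (difference -0.64, adjusted p = 0.432). Tbx21, the T-bet factor of immune cells (-0.12, adjusted p = 0.882), and Mga, a T-box protein that pairs with Max (-0.09, adjusted p = 0.887), did not pass either. The Tbx21 probe was very bright, at 6.53 with Klf4 and 6.65 with the control plasmid, and whether it reads Tbx21 alone was not tested. Tbr1 and Tbx22 were not well above background on any array.

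**Figure D4:**
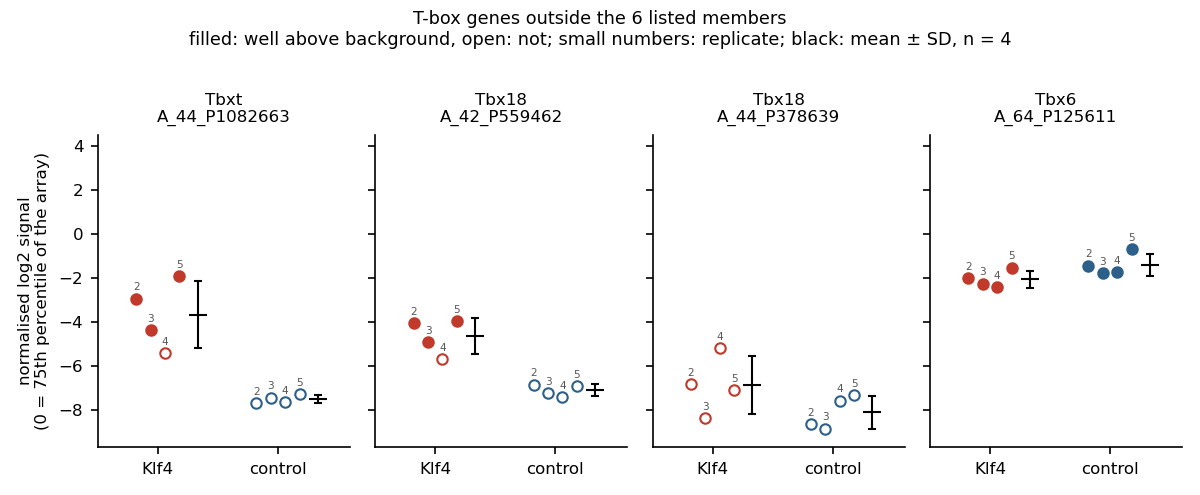
Normalised log2 signal of Tbxt, of both Tbx18 probes and of Tbx6 on the Klf4 arrays (left) and control arrays (right), filled where well above background. Tbxt and the first Tbx18 probe are filled on 3 Klf4 arrays and open on all 4 controls, and the second Tbx18 probe is open on all 8.

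Genes around the T-box factors were counted by list, and each count stands against the 3.12% of all tested probes that were higher and the 0.504% that were lower. Because the lists were chosen with earlier results of these data known, these counts are a description only. Of 7 tested genes of the dorsal retina, where Tbx2, Tbx3 and Tbx5 act, 0 passed in either direction with limma and 1 had an unadjusted p under 0.05 (median 0.15). Bmp4, the dorsal signal upstream of these factors, lay at -3.14 with Klf4 and at -2.78 with the control plasmid (difference -0.36, SE 0.21, adjusted p = 0.606). The retinoic acid enzyme Aldh1a1 (0.35, adjusted p = 0.780) and the ephrin genes Efnb1 (0.37, 0.406) and Efnb2 (-0.12, 0.889) did not pass. Of 6 tested ventral genes 0 passed and 0 had an unadjusted p under 0.05 (median -0.11), with Vax2, the ventral homeobox factor, at 0.07 (adjusted p = 0.905). Both medians lie between the 10th and 90th percentiles of all single probes, -0.48 and 0.34. A median over several genes varies less than a single probe, so nothing is read from this.

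Of 17 tested genes of BMP signalling and its feedback, 1 rose, 0 fell and 16 did not pass (median -0.02). Grem1, a secreted BMP antagonist, rose by 1.90 (SE 0.23, adjusted p = 0.00218), with 2 control arrays well above background, and by 0.93 with normexp. It entered the test through the Klf4 group, and without the filter on dim probes its adjusted p was 0.00483. The antagonist Chrd (1.23, adjusted p = 0.0814) and the target Id1 (1.21, adjusted p = 0.0701) did not pass.

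Of 16 tested genes of the Tbx1 pathway in the pharyngeal region, 4 rose, 0 fell and 12 did not pass (median 0.09), against 3.12% higher and 0.504% lower over all probes. The list was chosen with earlier results of these data known. Of the 4, Cyp26b1 and Fgf8 entered the test through the Klf4 group, so the count supports nothing about the pathway. Gbx2, a homeobox factor that lies downstream of Tbx1 in pharyngeal surface ectoderm of the mouse, read 7067, 4406, 4392 and 4155 units on Klf4 replicates 2 to 5, against 1463, 1205, 962 and 629 on control replicates 2 to 5. It rose by 2.23 (SE 0.21, adjusted p = 0.000736), and by 1.55 with its other probe. Cyp26b1, an enzyme that degrades retinoic acid, rose by 3.07 (SE 0.42, adjusted p = 0.00483), and by 1.89 with normexp, with 2 of the 4 control arrays not well above background. Without the filter on dim probes its adjusted p was 0.00953.

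Fgf8, a growth factor gene that Tbx1 regulates in the mouse, rose by 1.02 (adjusted p = 0.0271), and Eya2, a coactivator with phosphatase activity, by 0.94 (adjusted p = 0.0233). Fgf8 was above background on 3 Klf4 and 2 control arrays and so entered the test through the Klf4 group. Its difference was 0.40 with normexp (adjusted p = 0.522), and it did not pass without the filter on dim probes (0.0528) or without scaling (0.598). Leaving out any array but Klf4 replicate 4 ended both calls, with adjusted p from 0.0565 to 0.100 for Fgf8 and from 0.0556 to 0.0871 for Eya2. Cyp26b1 lost its call in the first scan alone (adjusted p = 0.0554), as did Fgf8 (0.115) and Eya2 (0.116). Foxc1 (1.04, adjusted p = 0.0799), Six4 (-1.06, 0.0532), Isl1 (0.12, 0.981) and Shh (0.06, 0.957) did not pass.

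Of 17 tested chromosomal neighbours of Tbx1, those of the DiGeorge region in human, 1 rose, 0 fell and 16 did not pass (median -0.04), a count near the share over all probes, 3.63% in either direction. The gene that rose was Gp1bb, a platelet glycoprotein subunit that is the direct neighbour of Tbx1 in the RefSeq gene table. It read 1635, 1193, 1071 and 1057 units on Klf4 replicates 2 to 5, against 396, 1100, 399 and 217 on control replicates 2 to 5, so that control replicate 3 lay close to the Klf4 arrays. Its normalised mean was -0.05 with Klf4 and -1.49 with the control plasmid, a difference of 1.44 (SE 0.31, adjusted p = 0.0401). Of 24 alternatives 13 ended the call, with adjusted p from 0.0548 with the scan as a block to 0.226 in the first scan alone. The lowest adjusted p over all 24 was 0.00897. Without control replicate 3 the difference was 1.72, and without each of the other arrays but Klf4 replicate 4 the call ended. Among the next neighbours, Septin5 was at 0.23 (adjusted p = 0.782) and Txnrd2 at -0.59 (0.222).

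Of 10 tested partners and targets of T-box factors in the heart, 1 rose, 0 fell and 9 did not pass (median -0.10). Nppb, the gene of the B-type natriuretic peptide, read 292, 180, 76.8 and 111 units on Klf4 replicates 2 to 5, against 3.71, 3.84, 8.86 and 5.61 on control replicates 2 to 5. It rose at least 6.93-fold (adjusted p = 0.00151, measured means -3.11 with Klf4 and -7.90 with the control plasmid). It too passed the filter through the Klf4 group alone, and its measured difference of 4.79 was 1.602 with normexp (adjusted p = 0.0101) and 2.79 with floored signals (0.0110). Nppa, the related A-type peptide gene and a known target of Tbx2, Tbx5 and Tbx20 in the mouse heart, did not pass (-0.47, adjusted p = 0.620), nor did Gata4 (-0.26, 0.889).

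Only 2 of the 10 limb and lung genes were tested. Wnt2b, a Wnt ligand upstream of Tbx5 in the zebrafish fin bud, rose (adjusted p = 0.00908), with means of -2.79 with Klf4 and -5.89 with the control plasmid, where 2 arrays were well above background. Its difference with normexp was 1.38 (adjusted p = 0.0111). Wnt2b entered the test through the Klf4 group, and without the filter on dim probes its adjusted p was 0.0171. Pitx1, upstream of Tbx4 in the hindlimb, was at 0.00 (adjusted p = 0.999). Of 8 tested genes that Tbx2 or Tbx3 are known to repress, 1 rose, 0 fell and 7 did not pass (median -0.09). The one that rose was Cdkn1a, which encodes the cell cycle inhibitor p21 (1.51, SE 0.25, adjusted p = 0.0133), with its other probe at 1.10 (adjusted p = 0.286). The adjusted p was 0.0548 with Klf4 replicate 2 left out and 0.0957 within the first scan. Cdkn2a (-0.36, adjusted p = 0.767), a main target of repression by Tbx2 and Tbx3, did not pass. Of 8 tested corepressor genes of the Groucho and histone deacetylase families 0 passed and 1 had an unadjusted p under 0.05 (median -0.07).

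**Figure D5:**
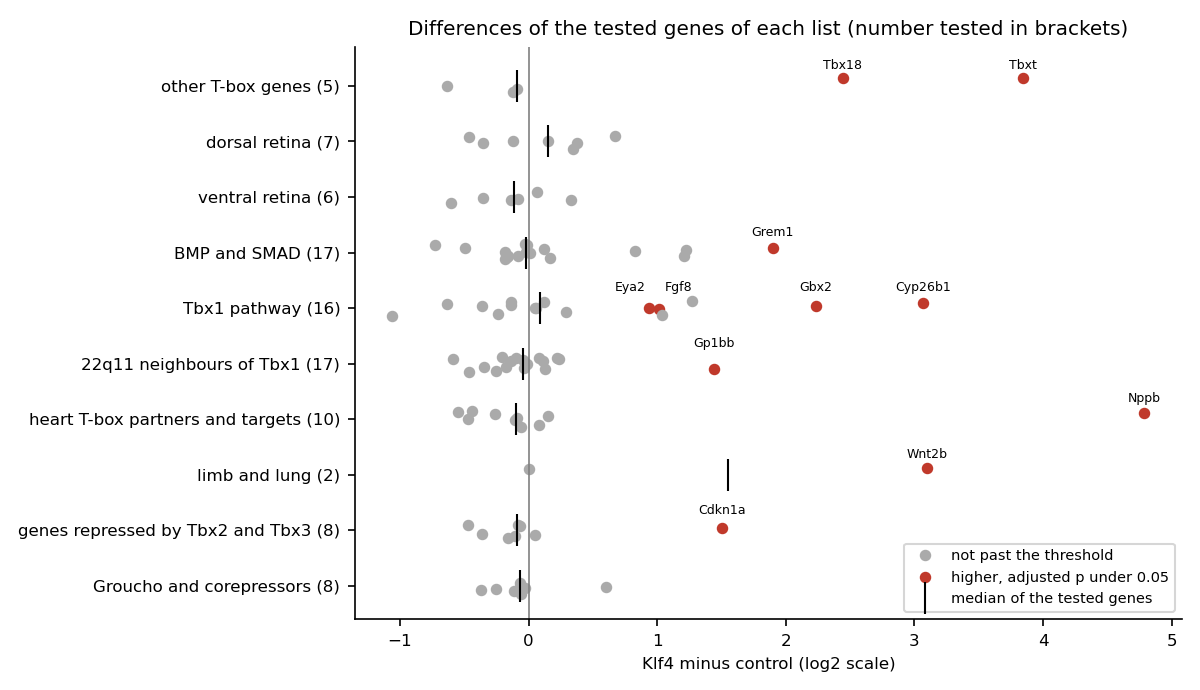
Difference of Klf4 minus control on the log2 scale for each tested gene of the 10 lists around the T-box factors, with the number tested in brackets, red points past the threshold and black bars for the medians. Points past the threshold lie above 0 in 7 lists, and the medians lie between -0.11 and 0.15 except for the limb and lung list, which holds 2 tested genes and has a median of 1.55.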

How the data were processed

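Cy3-labelled RNA was hybridised to Agilent single-colour arrays, 1 per sample, and spots were read with Feature Extraction 10.7.3.1, per the file headers. That software had subtracted background and spatial trend from the deposited intensity, which is unscaled between arrays. The deposited flags, unit other, mark controls and spots above background, saturated or outlying. The authors' deposited table holds log2 values whose normalisation no label or header names. Its columns shared a median of 7.54, and r across probes with the same array's signals was 0.9937 to 0.9996, above that with any other array, so its scale is log2 and its direction that of the signals.

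Control and outlier spots were left out, log2 intensities of a probe's spots were averaged, and the 75th percentile of each array was subtracted. Probes well above background on at least 3 of 4 arrays of a group were kept, 34724 of 45598. Accessions, without versions, named 21109 probes through a RefSeq table of assembly GRCr8 (16581 symbols). The files name another build, rn4, so no coordinates are given but those of the RefSeq promoter windows, which matched 4 of the 6 listed genes. Klf4 and control arrays were compared in R 4.3.3 by limma 3.58.1, its moderated test two-sided and without covariates, over all kept probes, with a Benjamini-Hochberg adjusted p under 0.05 as the threshold. Every adjusted p is from that fit or its alternatives, and each log2 difference is Klf4 less control, with the fit's standard error (SE). Of several kept probes the brightest stood for its gene, and the others are named. Levels of different probes are not compared. Where all arrays of a group were at background, the value is at least N-fold. It is the brighter group's mean less a bound, averaged over the arrays of the other group. The bound of an array is the higher of its own signal and its lowest signal well above background. It is not strict, since signals without the flag can lie above that lowest one. For Tbxt, Tbx18, Esam and Krt8, Klf4 replicate 4 was at background too and entered as read, so their folds are given without "at least". Plots used Python 3.11.15 and matplotlib 3.10.9.

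Members and lists were chosen with earlier results of these data known. The text names every member probe, the genes closest to each tested member (5 for Tbx1, 3 for the others) by Pearson correlation, and the list genes past the threshold, at most 4 per list; any other gene given with a value was picked once the values were known. The files hold no mean spot signal, so the normexp correction used the spot median with an offset of 50. The replicate numbers were not taken as pairs in the main fit. The reason was number 4, whose correlation of deviations from the group means was under 0.1 (0.0715). For numbers 2, 3 and 5 it was 0.346, 0.216 and 0.556, each the highest of that Klf4 array with any control array. Arrays of equal number also lay side by side on the slide and shared the scan and the quality mark. Whether equal numbers mark paired samples was not tested, and a fit with the number as a block is among the alternatives.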

Additional observations from a re-analysis of the deposited data

Results flagged for a closer look

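Among the members, 2 results had 1 array of a group far from the other 3, with a gap to the nearest array, as a share of the group's range, above Dixon's 95% critical value. For Tbx5, Klf4 replicate 5 lay at -2.73, against -4.15 for the next Klf4 array, a gap of 0.881 of the range. For Tbx3 with probe A_44_P1111586, Klf4 replicate 4 lay at 3.403, against 2.65 for the next, a gap of 0.847, while the other Tbx3 probe was lowest on that array. Of 14 groups examined, over 7 probes, 2 passed this limit, and chance flags about 1 in 20.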

How the results depend on the processing

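The sign and call of Tbx3 were the same in all 24 alternatives. So was the sign of Tbx1, but the alternatives refit the arrays that chose Tbx1, and this is a description only. The difference of Tbx1 was 2.44 with normexp, 4.04 with floored signals and 5.81 to 6.29 with 1 array left out. Tbx4 and Tbx5 passed in none of the alternatives, and their signs changed: Tbx5 was at -0.30 in the first scan alone and -0.10 with array weights, and over single arrays left out it ran from -0.23 to 0.30, and Tbx4 from -0.28 to 0.16. Tbx3 ran from -0.48 to -0.19 in the same way.

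Counts of probes moved more. Without scaling 620 were higher and 3 lower, with array weights 2088 and 1368, and in the first scan alone 707 and 63. With no filter 89 were lower, and with the scan as a block 294. With 1 array left out the higher probes numbered 689 (without Klf4 replicate 2) to 1436 (without Klf4 replicate 4) and the lower ones 40 (without control replicate 2) to 488 (without Klf4 replicate 4). The cause was not tested.

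With the replicate block, Tbx1 was at 6.04 and 958 probes were higher and 133 lower, and of the genes named from the lists Eya2, Cdkn1a, Gp1bb and Crx lost their calls (adjusted p 0.0749, 0.0502, 0.0990 and 0.0632). Klf4 replicate 4 correlated better with control replicate 3 (0.151) than with control replicate 4. Leaving out control replicate 2, 3 or 4 ended the call of Rbp3. Crx lost its call without any array but Klf4 replicates 4 and 5, and C1qb without Klf4 replicates 2 or 3 or control replicates 2 or 4, with adjusted p up to 0.0632, 0.135 and 0.0830. Without scaling between arrays Rbp3, Crx and C1qb did not pass. Nor did Eya2 (adjusted p = 0.861), Gp1bb (0.197) or Cdkn1a (0.0820). Signals near background limit Tbx1, Tbxt, Tbx18, Nppb, Wnt2b, Esam, Krt8, Fgf8, Grem1, Cspg4 and Cyp26b1, whose differences were smaller by over 1.5 times with normexp (0.91 for Cspg4).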
